A study of Mus musculus with 6 samples.

Results

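miR-455 and miR-140 are hairpin microRNAs best known from cartilage, and both arms of each were followed here in the mouse heart. The 4 mature miRNAs, miR-455-5p, miR-455-3p, miR-140-5p and miR-140-3p, were taken by name from a table of 1966 mature miRNAs. Read counts came from heart tissue, with 1 library per animal: 3 had sham surgery (numbered 47, 68 and 69) and 3 had transverse aortic constriction, TAC (numbered 29, 78 and 81). In TAC a ligature narrows the aortic arch, so that the left ventricle pumps against a lasting pressure load. All 6 mice were wild-type males and were sampled 8 weeks after surgery. The sources used here give neither strain nor age. The miRNAs were chosen by the family of the hairpin with their read counts in TAC and sham already known, so their differences between the groups are given as descriptions, without a p-value.

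A miRNA hairpin is cut from a longer transcript and then diced into a 5p and a 3p strand, of which one or both enter an Argonaute protein. Bases 2 to 8 of the loaded strand, the seed, select the mRNAs that it represses. miR-140 is transcribed with Wwp2, a ubiquitin ligase gene, under the chondrocyte factor SOX9, and represses among others the aggrecan-degrading protease gene Adamts5. miR-455 lies in Col27a1, a fibrillar collagen gene active in developing cartilage, and is known for targets in TGF-beta signalling, a main driver of matrix production by fibroblasts. Because bulk tissue was sequenced, fewer cells of a type and less RNA per cell cannot be told apart in any of the values.

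The sequences show whether reads of a member could be mistaken for those of another miRNA. They do not make the arms of a hairpin independent measurements. RefSeq (GRCm38.p6) held mature sequences for 3 of the 4 miRNAs, printed 5′ to 3′ with the seed in capitals, and the places agreed base for base with those of the count table. Each of the first pair of seeds below recurs in 1 other miRNA of the table, which is printed under it.
miR-455-5p: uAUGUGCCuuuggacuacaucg
miR-5129-3p: aAUGUGCCugugcaucucuucc
miR-140-3p: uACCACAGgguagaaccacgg
miR-497b: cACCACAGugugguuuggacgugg
miR-455-3p: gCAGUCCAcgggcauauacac
The seed of miR-455-3p was found in 0 other rows with a sequence. miR-5129-3p had 0 to 3 counts per library. miR-497b had 0 counts in every library, but its place lies over the opposite-strand row of miR-497a-3p, and a 0 in such a row is not read as absence. Among the 1675 rows with a sequence none was near-identical to these 3 members: the nearest mature sequence differed by 7 edits from miR-455-5p (miR-5129-3p), by 7 from miR-455-3p (miR-3110-3p) and by 8 from miR-140-3p (miR-142b). The 3p arms of both hairpins were 21 nt long and 57.1% GC, and miR-455-5p was 22 nt long and 45.5% GC.

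Every member had 1 place in the genome, and 0 rows of the table overlapped one on the opposite strand. In mm10, miR-455-5p lies at chr4:63256867-63256888 and miR-455-3p at chr4:63256904-63256924, both on the plus strand and 15 nt apart. They sit in intron 10 of the 61-exon coding transcript of Col27a1, an intron of 2318 nt. miR-140-5p lies at chr8:107551249-107551270 and miR-140-3p at chr8:107551288-107551308, on the plus strand and 17 nt apart. They sit in intron 16 of the 24-exon transcript of Wwp2, which is 2141 nt long, and an additional retained-intron transcript of Wwp2 covers them. Introns of protein-coding genes on the same strand held 149 of the 354 miRNAs tested (42.1%), whereas the arms of miR-455 were the 2 tested miRNAs inside a gene named as a collagen. Within 10000 nt of either hairpin there was no other miRNA of the table.

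In every heart the 3p arm of each hairpin was far above the 5p arm. Levels are given in CPM (reads per 1e6 reads of the library) scaled by TMM, a normalization that sets the bulk of miRNAs equal between libraries. Over the 6 libraries miR-140-3p averaged 2273 CPM and ranked 43rd of the 354 miRNAs tested, and miR-455-3p averaged 1947 CPM and ranked 51st. miR-455-5p averaged 130 CPM (rank 133) and miR-140-5p 105 CPM (rank 150). The lowest count behind any of these values was 97, for miR-455-5p in TAC 81, whose exact 95% Poisson interval runs from 78.7 to 118 counts and covers counting error only.

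For miR-455 the count of the 3p arm was 16.6, 16.0 and 14.4 times that of the 5p arm in sham 47, 68 and 69, and 13.3, 12.8 and 14.5 times in TAC 29, 78 and 81. For miR-140 the same ratio was 20.7, 22.6 and 22.3 in the sham hearts and 22.4, 20.98 and 20.6 in the TAC hearts. These ratios are taken within a library and do not depend on scaling. Their mean log2 values were 3.86 ± 0.15 for miR-455 and 4.43 ± 0.06 for miR-140 (SD, n = 6 libraries), and both were above 0 in 6 of 6 libraries (two-sided exact sign-flip permutation test, p = 0.03125 each and 0.03125 after Benjamini-Hochberg adjustment over the 2 hairpins, the smallest value that 6 libraries allow). The arm ratio was also larger for miR-140 than for miR-455 in 6 of 6 libraries, by 0.57 ± 0.16 on the log2 scale (SD, n = 6), which is given without a test because the comparison was chosen after the values were seen. Among 86 hairpins with both arms tested and 1 place for each arm, 49 (57%) had more 3p than 5p reads, and miR-140 and miR-455 had the 18th and 21st highest ratio of 3p to 5p. The sign-flip test used counts already known when the miRNAs were chosen, and it says only that the sign was the same in every library. Unequal capture of the arms would recur in every library, so that test cannot measure it. Whether library preparation captured both arms equally well was not tested.

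**Figure D1:**
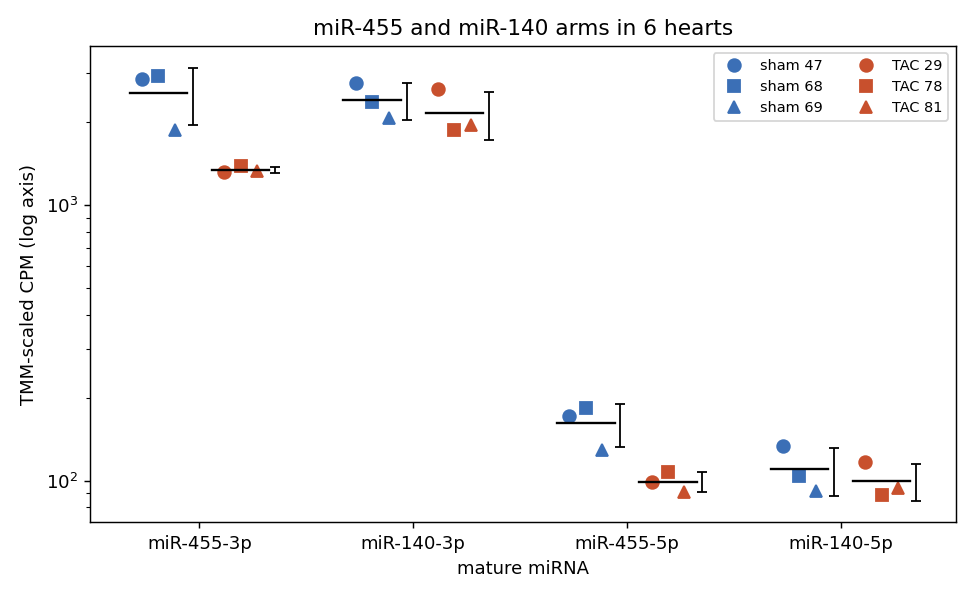
TMM-scaled CPM (log axis) of the 4 mature miRNAs in each heart; blue symbols are sham and orange symbols TAC, with 1 symbol shape per animal, horizontal lines are group means and bars ± 1 SD (n = 3 each). All 3 TAC hearts lie below all 3 sham hearts for both arms of miR-455, and the groups overlap for both arms of miR-140.

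miR-455 was lower in the hearts with TAC, in both arms. miR-455-3p stood at 2862, 2930 and 1862 CPM in sham 47, 68 and 69 and at 1318, 1380 and 1331 CPM in TAC 29, 78 and 81. The TAC hearts lay close together and below every sham heart, and sham 69 was the lowest of the sham hearts. The mean of sham was 2551 ± 597 CPM and that of TAC 1343 ± 32.8 CPM (SD over 3 hearts each), a log2 fold change of -0.93 ± 0.16 (edgeR estimate ± standard error).

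miR-455-5p, the minor arm, stood at 172, 183 and 129 CPM in the sham hearts and at 99.2, 107 and 91.1 CPM in the TAC hearts, in the same order of animals. Again the groups did not overlap, and again sham 69 was the lowest of the sham hearts. The means were 161 ± 28.7 CPM and 99.3 ± 8.18 CPM (SD, n = 3 each), with a log2 fold change of -0.70 ± 0.17. Without sham 69 the log2 fold changes of miR-455-3p and miR-455-5p were -1.12 ± 0.09 and -0.85 ± 0.16. Over the 6 analyses that each left out 1 mouse they ran from -1.12 to -0.80 and from -0.85 to -0.59, and miR-455-5p was no longer called without sham 47 (-0.62), sham 68 (-0.59), TAC 29 (-0.71) or TAC 81 (-0.65).

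miR-140-3p, in contrast, had overlapping groups. It stood at 2776, 2357 and 2059 CPM in sham 47, 68 and 69 and at 2632, 1867 and 1946 CPM in TAC 29, 78 and 81. TAC 29 was above 2 of the 3 sham hearts. Sham averaged 2397 ± 360 CPM and TAC 2148 ± 421 CPM (SD over 3 hearts each), and the log2 fold change of -0.16 ± 0.15 was about as large as its standard error. For miR-140-5p the values were 134, 104 and 92.0 CPM in the sham hearts and 117, 88.7 and 93.9 CPM in the TAC hearts, also overlapping, with a log2 fold change of -0.14 ± 0.19. Without sham 47, the highest sham heart for both arms, the estimates were -0.011 ± 0.15 for miR-140-3p and 0.061 ± 0.19 for miR-140-5p. The 95% intervals of the log2 fold change with all hearts, -0.51 to 0.19 for miR-140-3p and -0.57 to 0.30 for miR-140-5p, hold changes in either direction.

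Of the 4 members, all of which passed the low-count filter, both arms of miR-455 were among the miRNAs called lower in TAC and neither arm of miR-140 was called (edgeR quasi-likelihood test, Benjamini-Hochberg adjusted p under 0.05). The same test called 108 of all 354 miRNAs (30.5%), 40 of them lower (11.3%) and 68 higher (19.2%). Groups did not overlap for the 2 arms of miR-455 and for 182 of the 354 (51.4%), 78 of them lower in TAC (22%). Nothing is read from these counts, since this contrast was known when the members were picked. By fold change miR-455-3p was the 19th lowest and miR-455-5p the 39th lowest of 354, and miR-140-3p and miR-140-5p were 131st and 136th.

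**Figure D2:**
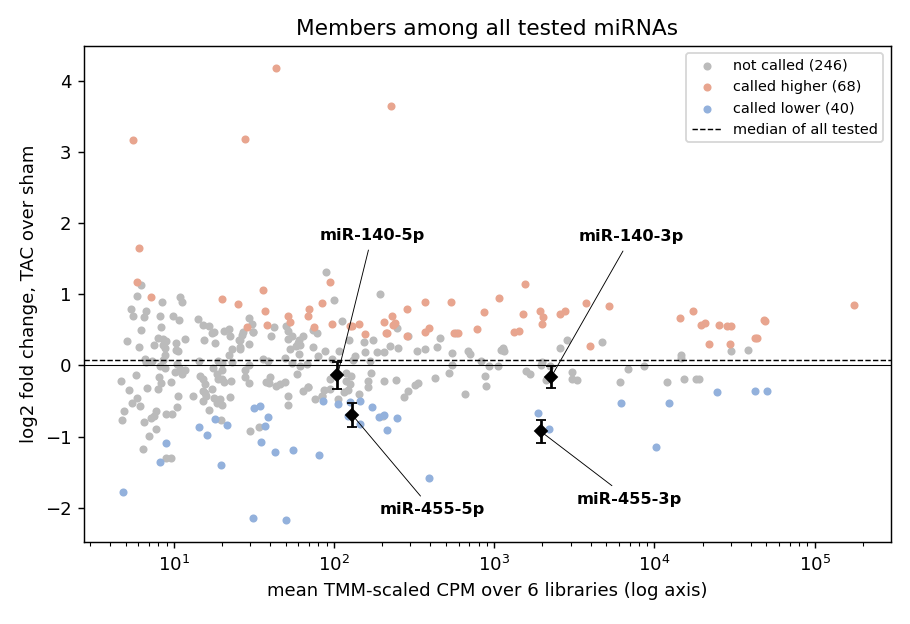
Log2 fold change of TAC over sham against mean TMM-scaled CPM (log axis) for the 354 miRNAs tested; diamonds with bars are the 4 members ± standard error, pale orange and blue points are miRNAs called higher (68) and lower (40), and the dashed line is the median of all. miR-455-3p (-0.93) and miR-455-5p (-0.70) lie among the called lower miRNAs, and miR-140-3p (-0.16) and miR-140-5p (-0.14) lie near the line.

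How many miRNAs were higher and how many lower depended on the scaling, and the members moved with it. TMM gave 68 higher against 40 lower, RLE size factors 50 against 56, upper quartile factors 41 against 63, totals that leave out the 5 most abundant miRNAs 35 against 82, and library totals 25 against 102. The median log2 fold change of all miRNAs was 0.07 with TMM and -0.23 with library totals. Set against the median of the same analysis, the 5 scalings placed miR-455-3p between -0.998 and -0.995, miR-455-5p at -0.77, miR-140-3p at -0.23 and miR-140-5p at -0.21. A scaling shifts all miRNAs nearly alike, and taking off the median removes that shift. The close agreement between scalings therefore follows from the calculation. Library totals gave log2 fold changes of -1.23 for miR-455-3p, -1.002 for miR-455-5p, -0.44 for miR-140-5p and -0.46 for miR-140-3p, which was called lower in that setting.

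The hairpins can be compared with each other without any scaling, since both were counted in every library. miR-455-3p had 1.03, 1.24 and 0.905 reads for each read of miR-140-3p in sham 47, 68 and 69, against 0.501, 0.740 and 0.684 in TAC 29, 78 and 81. The 3p arms thus had about equal read counts in the sham hearts, and in all 3 TAC hearts miR-140-3p had more reads than miR-455-3p. The mean log2 ratio went from 0.07 ± 0.23 in sham to -0.66 ± 0.30 in TAC (SD over 3 hearts each), a difference of -0.73. Both 3p arms have the same length and GC content, but whether they were captured equally well was not tested. The 5p arms gave ratios of 1.28, 1.76 and 1.40 in the sham hearts and 0.846, 1.21 and 0.970 in the TAC hearts, which do not overlap either.

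The arms of miR-140 kept nearly the same ratio in both groups, and those of miR-455 did so less closely. The log2 ratio of miR-455-3p to miR-455-5p was 3.97 ± 0.11 over the sham hearts and 3.76 ± 0.09 over the TAC hearts (SD over 3 each), a difference of -0.21. TAC 81, at 14.5 reads of the 3p arm per read of the 5p arm, lay just above sham 69 at 14.4, so the groups overlapped. For miR-140 the log2 ratio was 4.45 ± 0.07 and 4.41 ± 0.06, a difference of -0.036, with overlapping groups. Among the 86 hairpins the median absolute difference was 0.32, and by absolute difference miR-455 ranked 55th and miR-140 82nd. The median within-group SD of these hairpins was 0.31, against 0.10 for miR-455 and 0.07 for miR-140.

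**Figure D3:**
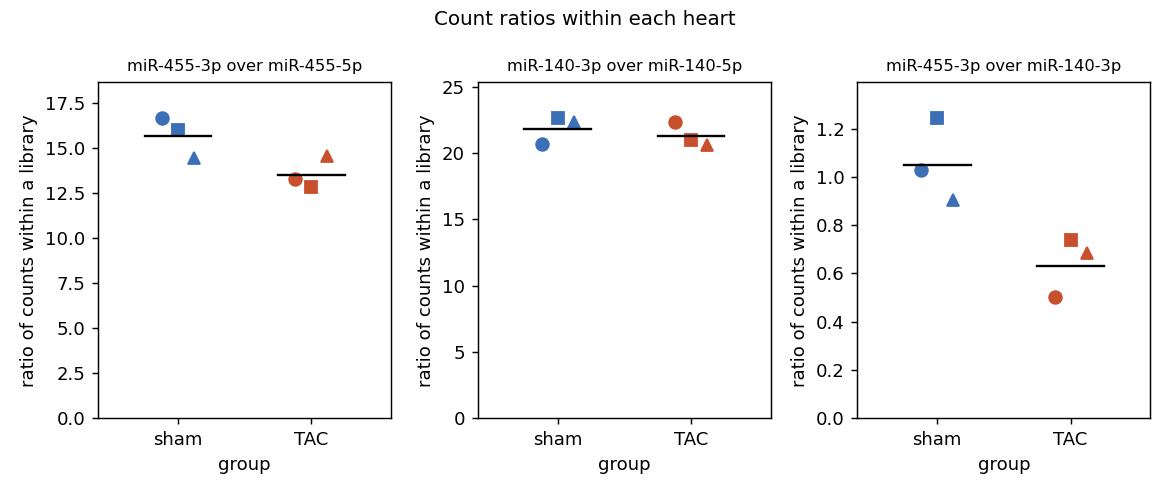
Count ratios within each library, on linear axes from 0, for the 3p over the 5p arm of miR-455 (left), of miR-140 (middle) and for miR-455-3p over miR-140-3p (right); symbols are hearts (blue sham, orange TAC, shapes as animals 47, 68, 69 and 29, 78, 81) and lines are geometric means. The groups overlap in the left and middle panels and are apart on the right, where the sham hearts lie at 0.905 to 1.24 and the TAC hearts at 0.501 to 0.740.

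Variation between hearts of the same group was similar in the arms of miR-140, and among the sham hearts also in those of miR-455. Sham 69 was the lowest sham heart for every member, while the highest sham heart differed between the hairpins. Relative to the sham mean, sham 69 was at -0.42 for miR-455-3p and -0.31 for miR-455-5p on the log2 scale, while sham 47 was at 0.20 and 0.11 and sham 68 at 0.23 and 0.20. For miR-140-3p and miR-140-5p sham 47 stood highest, at 0.22 and 0.30, and sham 69 lowest, at -0.21 and -0.24. In the TAC group TAC 29 was highest for miR-140-3p and miR-140-5p, at 0.31 and 0.24. For miR-455-3p and miR-455-5p TAC 29 was at -0.03 and 0.00, TAC 78 at 0.04 and 0.12, and TAC 81 at -0.01 and -0.12.

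Similarity of profiles was measured as the root mean square difference between log2 CPM values centred on their mean over the 6 libraries, where 0 is an identical course. The arms of miR-140 differed by 0.057, and each was the closest of 353 miRNAs to the other. miR-455-5p was the third closest miRNA to miR-455-3p, at 0.13. Between the hairpins the difference was 0.43 for the 3p arms, where miR-455-3p was the 208th closest of 353 to miR-140-3p and miR-140-3p the 82nd closest to miR-455-3p. These distances describe 6 libraries in 2 groups, share the scaling of each library and carry no test.

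The miRNAs outside the hairpins most like miR-455-3p were miR-199a-5p (0.11), miR-125b-1-3p (0.11) and miR-214-5p (0.14). miR-199a-5p and miR-214-5p come largely from the Dnm3os transcript of mesenchymal cells. The first RefSeq entry of each lies at chr1:162217844-162217866 and chr1:162223397-162223418, and any further place of these sequences is not given here. Their mature sequences, and that of miR-125b-1-3p, are shown with the seeds in capitals for comparison with miR-455-3p, with which none of them shares a seed.
miR-199a-5p: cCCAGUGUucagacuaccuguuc
miR-214-5p: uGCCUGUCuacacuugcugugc
miR-125b-1-3p: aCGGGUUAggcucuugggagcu
miR-199a-5p stood at 3277, 3111 and 2151 CPM in sham 47, 68 and 69 and at 1677, 1381 and 1537 CPM in TAC 29, 78 and 81. As for miR-455-3p, sham 69 was the lowest sham heart and all TAC hearts were lower still. Its log2 fold change was -0.89 ± 0.16, and those of miR-125b-1-3p and miR-214-5p were -0.82 ± 0.16 and -1.19 ± 0.19. The 3 were among the miRNAs called lower. They were picked for following miR-455-3p over these same libraries, so a like course and fold change follow from the choice.

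The 3 miRNAs most like miR-455-5p were miR-125b-1-3p (0.095), miR-671-3p (0.099, log2 fold change -0.74 ± 0.17, called lower) and miR-770-3p (0.11), which at 7.24 CPM was a weakly detected row and was not called. Nearest to miR-140-3p were miR-532-5p (0.13), miR-320-3p (0.14) and miR-125b-5p (0.14). For miR-140-5p they were miR-125b-5p (0.15), miR-3068-5p (0.15) and miR-532-5p (0.16). None of these neighbours of miR-140 was called, and their log2 fold changes ran from -0.24 ± 0.10 for miR-125b-5p to 0.09 ± 0.19 for miR-3068-5p. All neighbours named here were picked by their values in the same libraries, so fold changes near those of the arms follow from the choice.

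**Figure D4:**
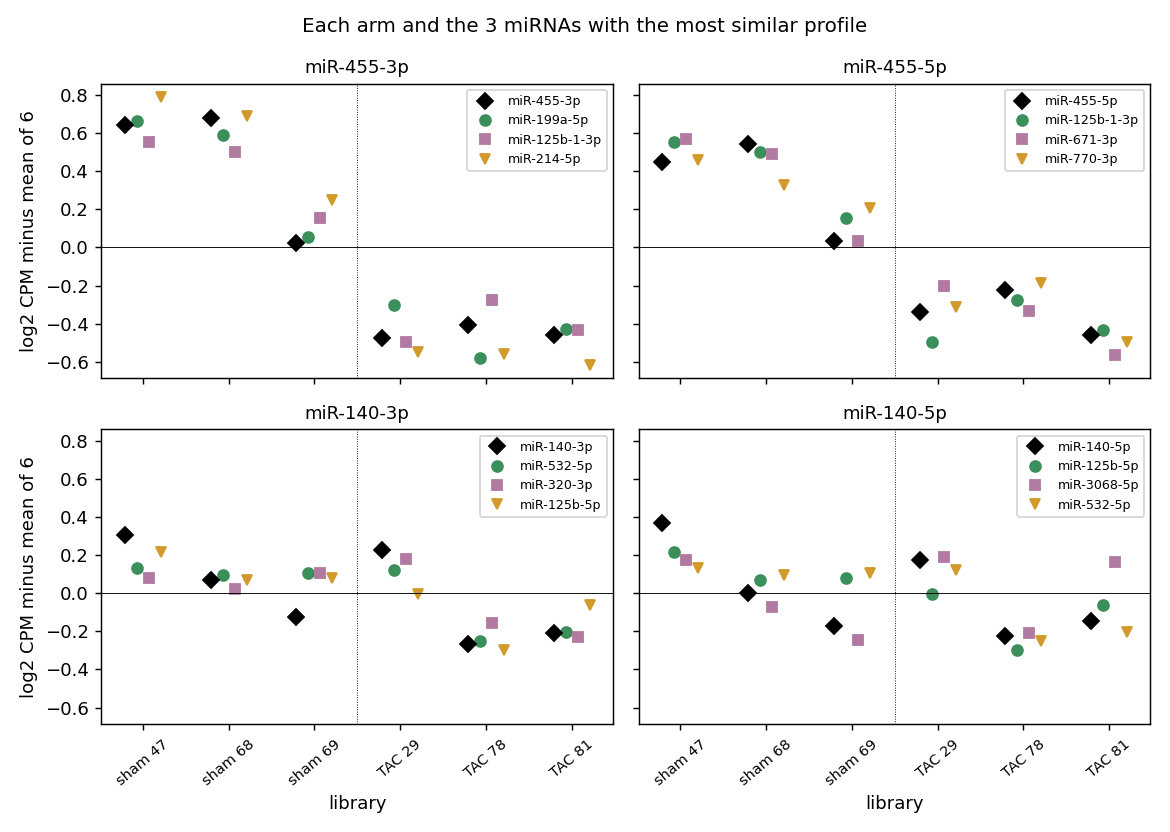
Log2 CPM minus the mean of the 6 libraries for each member (black diamonds) and the 3 miRNAs with the most similar profile (coloured symbols), by library; the dotted line parts sham from TAC. The profiles around miR-455 step down from sham to TAC with sham 69 in between, and both arms of miR-140 overlap between the groups. The coloured miRNAs were picked for this likeness.

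Other miRNAs linked to cartilage did not share one direction. Of 19 further miRNAs listed for chondrocytes, 14 were tested; 4 rose, 1 fell and 9 did not pass, with a median log2 fold change of 0.21 against 0.07 for all 354. Over all 354 miRNAs 19.2% were called higher and 11.3% lower. The miRNA that fell was miR-1247-5p, known for repressing the SOX9 mRNA, at 46.9 ± 16.2 CPM over the sham hearts and 22.7 ± 5.70 CPM over the TAC hearts (SD over 3 each; log2 fold change -1.08 ± 0.30). Those that rose were miR-148a-3p, miR-101a-3p, miR-26b-5p and miR-335-5p, by 0.57 ± 0.14, 0.76 ± 0.09, 0.58 ± 0.08 and 0.56 ± 0.18 on the log2 scale. The most abundant of the list were miR-26a-5p, at a log2 fold change of 0.21 ± 0.09 that did not pass, and miR-148a-3p. miR-675-3p, miR-337-3p and miR-9-5p of the list had 0 counts in every library, and the last 2 lie over rows of the opposite strand. Most of these miRNAs are expressed in many tissues besides cartilage.

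miR-29, the family known for repressing collagen mRNAs, had 5 tested members, of which 2 rose, 0 fell and 3 did not pass, beside 19.2% called higher and 11.3% lower of all 354 (median log2 fold change 0.36, against 0.07 for all). miR-29a-3p, the most abundant, was at 2515 ± 271 CPM in sham and 3216 ± 618 CPM in TAC (0.35 ± 0.14, not called), and miR-29b-3p rose from 162 ± 17.7 to 249 ± 54.8 CPM (SD, n = 3 each).

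Marker miRNAs of several cell types were counted beside these values, to be read against the 19.2% called higher, the 11.3% called lower and the median log2 fold change of 0.07 of all 354 miRNAs. Of 8 fibroblast and mesenchymal miRNAs, all tested, 6 fell, 0 rose and 2 did not pass (median log2 fold change -0.71). Their summed level was 31665 to 47334 CPM in the sham hearts and 22123 to 24834 CPM in the TAC hearts, led by miR-199a-3p and miR-21a-5p. The miR-199a-3p and miR-199b-3p rows hold the same sequence and are not independent, and both enter the count and the sum. Of 7 cardiac muscle miRNAs, 6 rose and 1 did not pass (median 0.62), and their sum was 152430 to 183960 CPM in sham and 274870 to 327570 CPM in TAC, led by miR-1a-3p and miR-133a-3p. In smooth muscle, 3 of 4 rose and 1 did not pass (median 0.55, summed level 34626 to 43244 against 59519 to 62551 CPM), led by miR-143-3p and miR-145a-5p. Of 5 tested leukocyte miRNAs 2 rose and 3 did not pass (median 0.56, 218 to 234 against 345 to 362 CPM summed), led by miR-142a-5p and miR-150-5p, with miR-142a-3p at 0. Of 3 tested red blood cell miRNAs 1 rose and 2 did not pass (median 0.37, 999 to 1164 against 1641 to 3062 CPM summed), led by miR-451a and miR-144-3p, with miR-486a-5p at 0. The endothelial list had 1 tested member, miR-126b-3p, which did not pass, and miR-126a-3p and miR-126a-5p were at 0 (5.62 to 7.44 against 5.64 to 8.06 CPM summed). The 4 rows at 0 in these lists lie over rows of the opposite strand and do not measure absence. miR-126b-3p is itself the opposite-strand row of miR-126a-5p, so the endothelial sum is not read as a level of that cell type. The part of these cell types in the values of miR-455 was not tested.

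A sequence property moved with the group as well. Over 315 tested miRNAs with a sequence, the Spearman correlation of GC content with a miRNA's deviation from its own mean was 0.24, 0.18 and 0.35 in sham 47, 68 and 69, against -0.31, -0.12 and -0.26 in TAC 29, 78 and 81. It is a description over miRNAs of 1 library each. After each library's GC trend was removed, an analysis added after the data were seen, the log2 fold changes were -0.77 ± 0.19 for miR-455-3p, -0.83 ± 0.18 for miR-455-5p and 0.0055 ± 0.17 for miR-140-3p. Both arms of miR-455 were called lower in that analysis and miR-140-3p was not called. Of all 315 miRNAs it called 65, with 35 higher and 30 lower. Nothing is read from these calls, since the contrast was known when the members were picked.

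**Figure D5:**
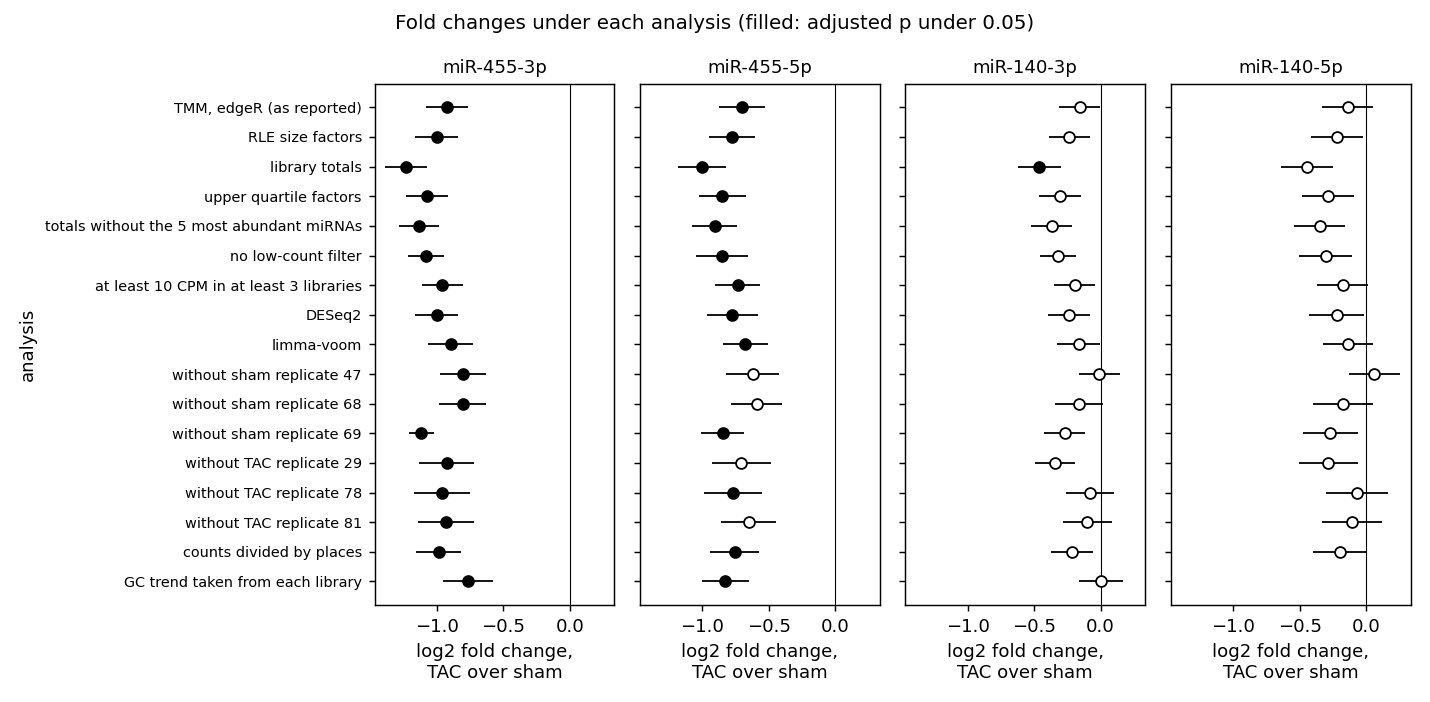
Log2 fold change of TAC over sham ± standard error for each member under each analysis; filled circles have an adjusted p under 0.05. miR-455-3p runs from -1.23 to -0.77 and is filled in all analyses, miR-455-5p is open in 4 of the analyses that leave out 1 mouse, miR-140-3p is filled with library totals alone, and miR-140-5p is open throughout and has no value for the GC trend.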

How the data were processed

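The authors deposited 1 table of raw read counts per mature miRNA, with 1 column per mouse. HISAT2, StringTie, DESeq2 and build mm10 are named, without role or version, in the submitters' processing notes; the sources used here give no trimming, counter or strand setting. Columns were matched to mice by animal number, and 0 columns of values were left unmatched. Totals were 1226187 to 3509001 counts per library, at which 3 counts, the limit a count of 0 allows, equal 0.855 to 2.45 CPM. They were 1818725 to 3509001 in the sham libraries and 1226187 to 1795831 in the TAC libraries. TMM factors were 1.10 to 1.13 in sham and 0.87 to 0.92 in TAC. Every TAC library was thus smaller than every sham library, and the part of depth was not tested. No 2 libraries of a group were copies (chi-square per degree of freedom of at least 34.4).

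Counts were tested with edgeR 4.0.16 in R 4.3.3 (quasi-likelihood F-test, TMM, filterByExpr, no covariate, Benjamini-Hochberg over 354 miRNAs). The pipeline was also run on simulated counts that held no GC trend, and the outcome is not reported here. Ratios used a pseudocount of 0.5, and log2 CPM a prior count of 2. Alternatives were DESeq2 1.42.0, limma-voom (limma 3.58.1), 4 scalings, 2 filters and leaving out each mouse, with 2 added after the data were seen: counts divided by places and a GC trend (loess, span 0.75). Host genes came from GENCODE M21 and sequences from RefSeq GRCm38.p6. The members and lists were chosen with earlier results of these data known. Named miRNAs were the members, their seed mates, the 3 most similar profiles of each and the 2 most abundant of each list. Further called members of the cartilage list were named after their values were seen.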

Additional observations from a re-analysis of the deposited data

How the results depend on the processing

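All alternatives reuse the same libraries, and the contrast was known when the members were picked. How often a member was called is therefore a description of the processing and no support for a difference. The fold change of miR-455-3p stayed below 0 and called in all 16 alternatives (-1.23 to -0.77, and -1.12 to -0.80 when 1 mouse was left out). miR-455-5p stayed below 0 in all 16 and was called in 12; leaving out 1 mouse gave -0.85 to -0.59, and the call was lost without sham 47 (-0.62), sham 68 (-0.59), TAC 29 (-0.71) or TAC 81 (-0.65). miR-140-3p was called lower with library totals (-0.46) and in 0 of the other 15 alternatives; leaving out 1 mouse gave -0.34 to -0.011, and the GC trend turned the sign (0.0055). miR-140-5p was called in 0 of 15 alternatives; leaving out 1 mouse gave -0.28 to 0.061, the positive value being that without sham 47. It had no sequence for the GC trend. The causes were not tested. The number of called miRNAs was 108, 64 to 83 when 1 mouse was left out (64 without TAC 81 and 69 without TAC 78), 65 with the GC trend, which tested 315 miRNAs, and 103 to 127 in the other alternatives. The mean log2 arm ratio was 3.82 to 3.90 for miR-455 and 4.42 to 4.45 for miR-140 when 1 mouse was left out, where 5 libraries cannot reach the threshold. The differences between groups in the arm ratios and in miR-455-3p over miR-140-3p moved by less than 1 SD under the alternatives run for them, although that of the miR-140 arms (-0.036) was -0.077 without sham 47 and -0.011 without sham 68. The ratio of the 5p arms was not recomputed. No paired analysis was possible because the groups share no replicate number. With 97 to 672 counts, the 5p arms carry more counting error than the 3p arms.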
